A study of Homo sapiens with 9 samples.

Results

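The comparison set 6 RNA-seq libraries of degrader-treated HEK293T cells, taken as 1 group, against 3 libraries of the same cells given DMSO. It used all 9 libraries of the series, and the 6 were chosen by their treatment labels alone: 3 received dTAG47 and 3 received AGB1, each at 500 nM for 24 h. HEK293T cells descend from human embryonic kidney and express SV40 large T antigen. In every group, DMSO included, PRPS1 was fused to HA and dTAG and PRPSAP1 to V5 and BromoTag (genotype label PRPS1-HA-dTAG_PRPSAP1-BromoTag). The study used dTAG47 to remove PRPS1 and AGB1 to remove PRPSAP1 and asked how transcription responds. With the treatments pooled, the question is which transcripts differ from DMSO after either of them. The labels do not say whether the line is a single clone or whether replicate libraries were grown as separate cultures, so p-values reflect only how far these libraries spread, which may be technical.

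PRPS1 is a phosphoribosyl pyrophosphate (PRPP) synthetase. It activates ribose 5-phosphate from the pentose phosphate pathway, and PRPP then feeds the synthesis of purines, pyrimidines and NAD. PRPSAP1 is a relative without catalytic activity that assembles with the synthetases. A degrader is a bifunctional molecule that holds a tagged protein next to a ubiquitin ligase, CRBN for dTAG47 and VHL for AGB1, so that the proteasome destroys the protein. Because the compounds act on proteins, mRNA levels of the tagged genes do not check the depletion. Cells without the tags were not analysed here, so a response to the loss of the proteins and a response to the compounds themselves cannot be told apart.

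The libraries held 27964128 to 44803380 counts each. Of 58735 listed genes, 18319 passed the low-count filter. Libraries of 1 group differed far beyond counting noise, so none was a second copy of another. On the first principal component (22.1% of the variance) DMSO 1 and dTAG47 1 stood at opposite ends, and the deviations of these libraries from the gene means followed transcript GC content most steeply (Spearman's rho across genes −0.378 and 0.623). On the second component (15.3%) the 3 DMSO libraries scored from 2.73 to 10.1, dTAG47 1 scored 4.22 and the other 5 compound libraries scored from −6.18 to −1.63. All 12 genes listed as expressed in HEK293T were tested, and their summed level was 1351 to 1391 CPM (counts scaled to a common library size) in DMSO and 1312 to 1395 CPM with the compounds. Markers of other cells were low in all groups. Of 9 fibroblast markers 3 were tested, and all 9 summed to 28.5 to 33.3 CPM in DMSO and 23.1 to 34.1 CPM with the compounds, nearly all of it COL1A1, with POSTN at 0. The 9 immune markers summed to at most 6.32 CPM in DMSO and 5.25 CPM with the compounds, and the 7 endothelial markers to 0.962 to 1.47 and 0.851 to 2.11 CPM. None of the 7 hepatocyte or 7 erythroid markers was tested, and APOB, SERPINA1, FGB, HBG1 and HBG2 were among those at 0. The share of counts from mitochondrial transcripts was 2.25% ± 0.110 in DMSO (SD, n = 3) and 2.14% ± 0.168 with the compounds (SD, n = 6; two-sided exact permutation p = 0.310 over 84 splits, where 0.0238 is the smallest p).

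With the compounds pooled, 36 genes passed the threshold. HMOX1, CHAC1, SLC7A5 and SESN2, which respond to oxidative or amino acid stress, were higher, as were JUN and RHOB, which are induced early by many stimuli. WNT5A, SEMA3C, its co-receptor NRP1, 3 of 20 retinoic acid genes and 4 of 37 HOX genes were lower. Changes were small: 29 of the 36 genes past the threshold lay within 1.5-fold of DMSO. In edgeR's quasi-likelihood test at an adjusted p under 0.05, 11 genes were higher (0.06% of those tested) and 25 lower (0.136%), together 0.197%. At an unadjusted p under 0.05 there were 1618 genes (8.83%), 804 higher and 814 lower. For 32 of the 36 genes the 6 compound libraries lay wholly outside the range of the 3 DMSO libraries. Selection by the same comparison favours such genes. Over all genes tested, 2.11% lay wholly above and 2.2% wholly below. The called genes with overlap were PKD1P1, MT-RNR1, HSPA1A and FP236383.2. In bulk RNA, fewer cells that express a gene and less RNA per cell cannot be told apart.

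**Figure D1:**
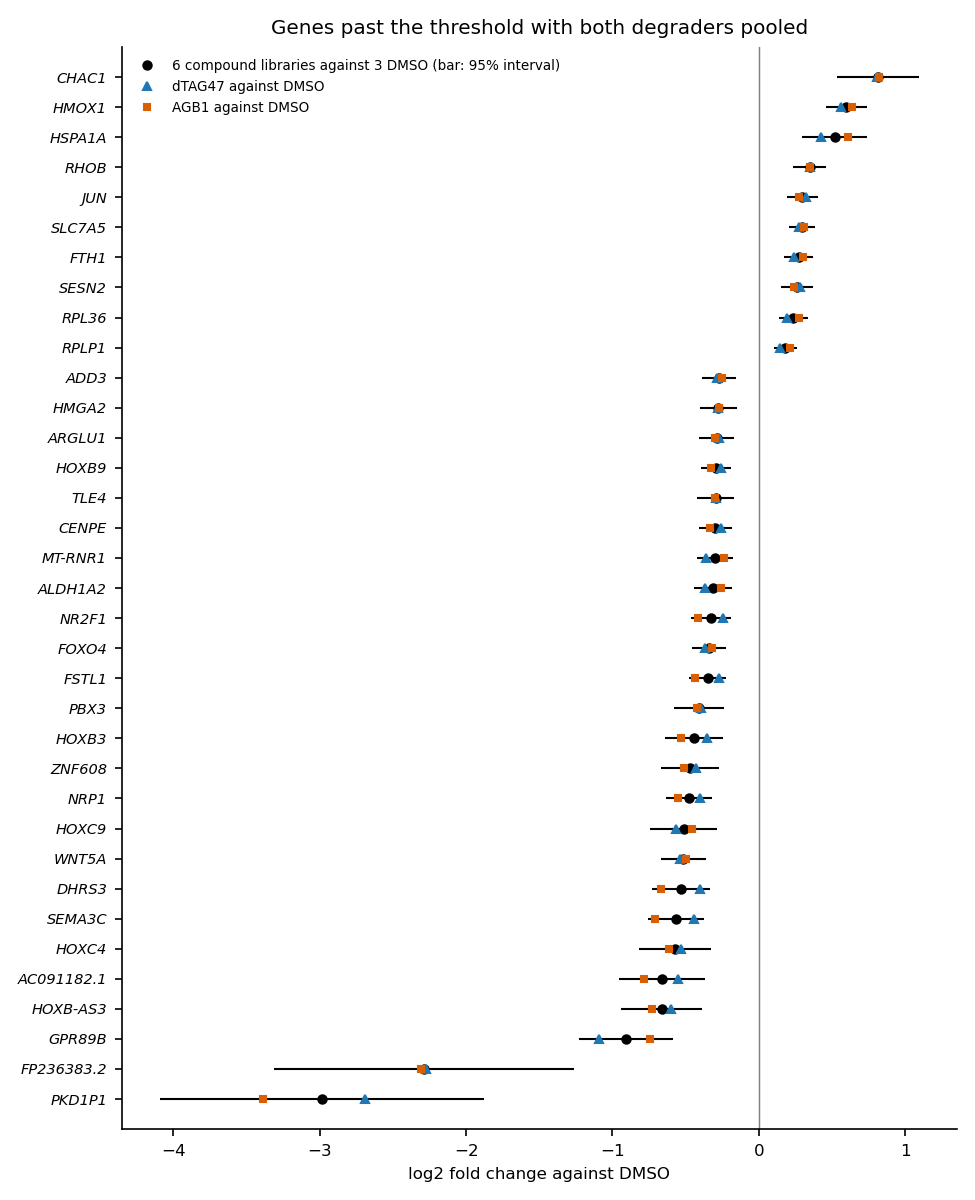
Log2 fold change against DMSO (x axis) of 35 of the 36 genes past the threshold, one gene per line. Black points are the 6 compound libraries against 3 DMSO libraries with a bar for the 95% interval; triangles are dTAG47 alone and squares AGB1 alone, both against the same DMSO libraries. CHAC1 is highest at 0.81, and most genes lie between −0.7 and 0.4.

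HMOX1 had the smallest p-value of all genes. It encodes heme oxygenase, an enzyme of heme breakdown under the oxidative stress regulator NRF2 (ENSG00000100292, GRCh38 chromosome 22, 35380361 to 35394214, plus strand). HMOX1 stood at 40.6, 37.8 and 40.1 CPM in DMSO 1 to 3, and at 55.2 (lowest), 61.0 (median) and 63.7 CPM (highest) in the 6 compound libraries. Both compounds were above every DMSO library. The log2 fold change was 0.60 (SE 0.07, edgeR adjusted p = 1.49e-05), a rise of 51.5%. Each compound alone gave 0.56 (dTAG47) and 0.64 (AGB1) against the same DMSO libraries. FTH1, the heavy chain of the iron store ferritin (ENSG00000167996, chromosome 11, 61959718 to 61967660, minus strand), rose from 147, 158 and 153 CPM to 179, 182 and 193 CPM (lowest, median, highest). Its log2 fold change was 0.27 (SE 0.05, edgeR adjusted p = 0.00545). FTH1 shares 62.4% of its exonic bases with other annotated genes and 30.8% of its 75-base words with 12 other genes. Its count is therefore uncertain, and by how much was not tested. Without DMSO 1 FTH1 missed the threshold (0.25, edgeR adjusted p = 0.0540).

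Of 23 tested NRF2 targets, 18 had a positive fold change (50.4% of all genes tested did), and the list's median was 0.09 against 0.00 for all genes. HMOX1 and FTH1 passed the threshold upward and 0 downward. At an unadjusted p under 0.05, 6 were higher, against 4.39% of all genes, and 0 lower. SQSTM1, an autophagy receptor (0.19, SE 0.06), the cystine transporter SLC7A11 (0.26, SE 0.10) and the ferritin light chain FTL (0.09, SE 0.04) were among these, and edgeR adjusted p-values were 0.166, 0.414 and 0.491. The quinone reductase NQO1, also on the list, stood at −0.24 (SE 0.12, edgeR adjusted p = 0.577).

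CHAC1, SLC7A5 and SESN2 belong to the targets of ATF4. ATF4 is the transcription factor of the integrated stress response, made when eIF2 kinases sense a shortage of amino acids or other stress, and it turns on genes of amino acid uptake and synthesis. CHAC1, which degrades glutathione (ENSG00000128965, chromosome 15, 40952962 to 40956519, plus strand), was at 5.30, 7.60 and 7.15 CPM in DMSO 1 to 3 and at 10.3, 12.2 and 13.2 CPM (lowest, median, highest) with the compounds. No compound library reached down to the DMSO range. CHAC1 rose by 75.9%, or 0.81 on the log2 scale (SE 0.14, edgeR adjusted p = 0.00356). DMSO 1 was the lowest library, and without it CHAC1 was at 0.67 with an edgeR adjusted p of 0.0540.

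SLC7A5 is the light chain of a transporter for large neutral amino acids (ENSG00000103257, chromosome 16, 87830023 to 87869488, minus strand). It was at 425, 384 and 409.9 CPM in DMSO and at 469, 500.1 and 519 CPM (lowest, median, highest) with the compounds, without overlap. The log2 fold change was 0.29 (SE 0.04, edgeR adjusted p = 0.000874). SESN2, a leucine sensor that restrains mTORC1 (ENSG00000130766, chromosome 1, 28259527 to 28282491, plus strand), rose by 0.26 (SE 0.05, edgeR adjusted p = 0.0229), from 137, 134 and 155 CPM to between 166.0 and 180.4 CPM. SESN2 is also on the lists of p53 targets and of mTORC1 brakes. It lost significance without any of DMSO 1, DMSO 2, dTAG47 3, AGB1 2 or AGB1 3 (edgeR adjusted p from 0.0520 to 0.286).

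**Figure D2:**
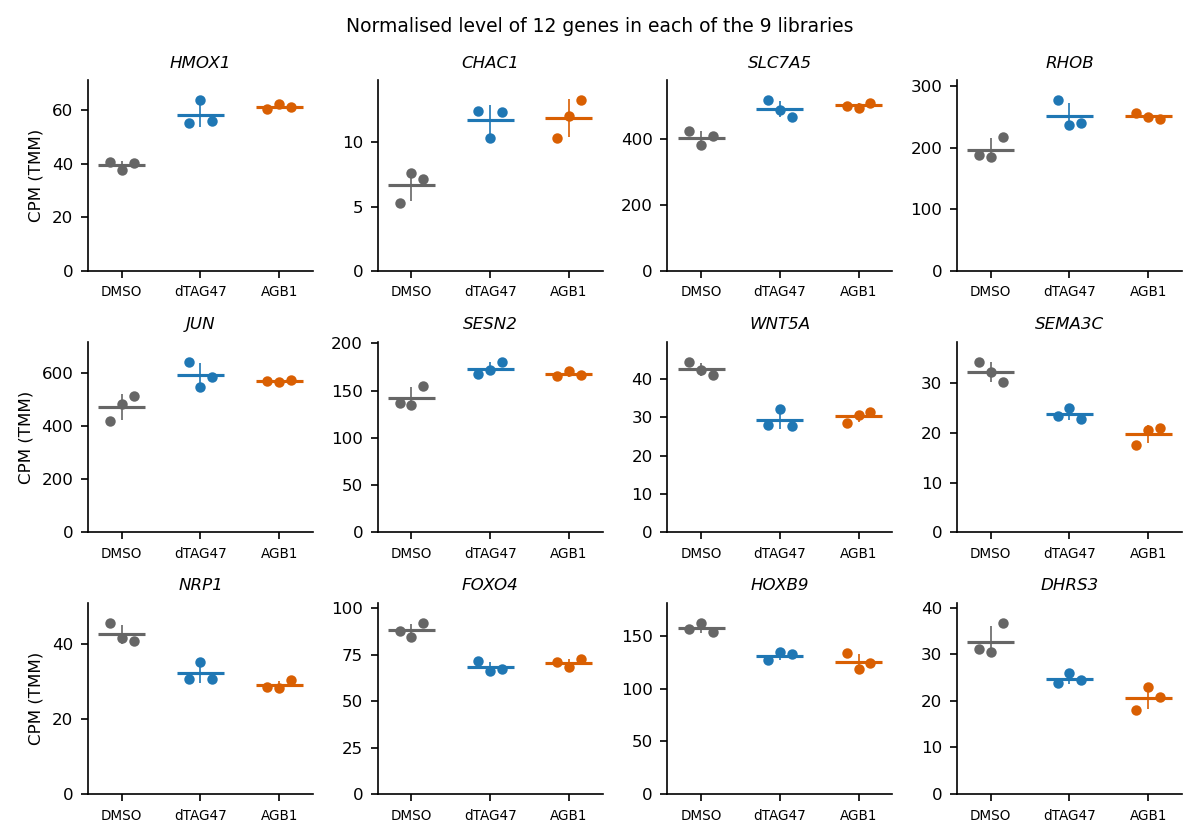
Normalised level in CPM (y axis, from 0) of 12 genes in the 3 DMSO, 3 dTAG47 and 3 AGB1 libraries. Points are libraries, horizontal lines group means and vertical lines 1 SD (n = 3). In HMOX1 the 6 compound libraries sit between 55.2 and 63.7 CPM, above all DMSO libraries, and in WNT5A between 27.7 and 32.0 CPM, below all of them.

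Across the list, the fold change was above 0 in 34 of the 38 ATF4 targets tested, with a median of 0.12 (0.10 with dTAG47 and 0.13 with AGB1, which share their controls). At an unadjusted p under 0.05, 17 were higher and 0 lower, against 4.39% and 4.44% of all genes tested. In 11 of them all compound libraries lay above all DMSO libraries, against 2.11% of all genes tested. Besides the 3 genes that passed, and named after their values were seen like other list members without a call, the smallest p-values were those of STC2, a secreted glycoprotein (0.19, SE 0.05), EIF4EBP1, a repressor of translation initiation (0.19, SE 0.06), and the transcription factor ATF3 (0.22, SE 0.07), with edgeR adjusted p from 0.160 to 0.206. ATF4 mRNA itself was at 0.11 (SE 0.04, edgeR adjusted p = 0.342), and ASNS and DDIT3, a pair of often used ATF4 markers, were at 0.22 (SE 0.23) and 0.06 (SE 0.15). The per-library medians of the list, as deviations from each gene's mean, were −0.12, −0.08 and −0.03 in DMSO 1 to 3. With the compounds dTAG47 3 was at −0.02 and the other 5 libraries between 0.04 and 0.09.

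The promoters of CHAC1 and SLC7A5 are shown because these ATF4 targets rose together. That of SEMA3C, a gene that fell, is shown because it shares an element with CHAC1. Each is the RefSeq window from 250 bases before to 50 bases after an annotated start (GRCh38.p14), read 5′ to 3′ on the gene's strand. Capitals mark matches, on either strand, to TGATGNAA (the composite element bound by ATF4 with C/EBP factors), TGACNNNGC (antioxidant response element), CACGTG (E-box) or TGACTCA (AP-1). No match overlaps another in these 3 windows. CHAC1 lies at chr15:40953221-40953520 (plus), SLC7A5 at chr16:87869458-87869757 (minus) and SEMA3C at chr7:80922340-80922639 (minus).
CHAC1: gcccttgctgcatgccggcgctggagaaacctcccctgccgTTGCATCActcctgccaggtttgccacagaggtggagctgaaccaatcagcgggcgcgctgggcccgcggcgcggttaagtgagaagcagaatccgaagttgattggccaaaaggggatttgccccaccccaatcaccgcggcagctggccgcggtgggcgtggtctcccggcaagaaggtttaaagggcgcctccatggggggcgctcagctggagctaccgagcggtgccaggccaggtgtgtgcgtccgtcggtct
SLC7A5: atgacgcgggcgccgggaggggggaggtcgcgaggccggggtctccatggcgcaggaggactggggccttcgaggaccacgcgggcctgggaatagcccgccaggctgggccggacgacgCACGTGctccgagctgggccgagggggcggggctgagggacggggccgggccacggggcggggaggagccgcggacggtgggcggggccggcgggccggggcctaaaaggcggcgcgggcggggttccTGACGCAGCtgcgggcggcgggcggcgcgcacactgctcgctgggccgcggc
SEMA3C: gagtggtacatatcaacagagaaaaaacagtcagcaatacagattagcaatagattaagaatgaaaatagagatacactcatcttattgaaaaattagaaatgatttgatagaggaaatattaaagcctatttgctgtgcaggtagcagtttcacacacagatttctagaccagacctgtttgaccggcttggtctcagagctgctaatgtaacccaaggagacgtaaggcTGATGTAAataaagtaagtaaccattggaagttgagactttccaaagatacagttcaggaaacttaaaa

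In the CHAC1 window the capitals are TTGCATCA, the reverse complement of TGATGNAA, beginning 209 bases before the start. This whole window lies inside the CHAC1 span given above, downstream of the 5′ end of that span. SLC7A5 holds CACGTG from 130 bases before the start and TGACGCAGC from 2 bases before it. SEMA3C holds TGATGTAA from 19 bases before its start. TGATGNAA occurs in 3.62% of the 35116 promoter windows in the table, TGACNNNGC in 13.3%, CACGTG in 7.26% and TGACTCA in 4.95%. Of the 38 tested ATF4 targets 28 matched the table by name, with 44 windows, because a gene can have several starts. TGATGNAA was present in 8 of these 44 windows (18.2%) and TGACNNNGC in 13 (29.5%). The median GC content of these windows was 66.3%, and 58.7% over all windows. Among all called genes, 8 of 11 that rose and 15 of 25 that fell matched, and TGATGNAA was in 1 window of each set. These matches describe letters in a window and not binding.

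RHOB and JUN head the immediate early genes, which many stimuli induce within minutes. RHOB, a small GTPase of endosomes and the actin skeleton (ENSG00000143878, chromosome 2, 20447074 to 20449445, plus strand), was at 188, 184 and 218 CPM in DMSO 1 to 3 and at 236, 248 and 276 CPM (lowest, median, highest) with the compounds. JUN, which forms AP-1 with FOS proteins (ENSG00000177606, chromosome 1, 58780788 to 58784327, minus strand), was at 419, 482 and 515 CPM in DMSO and at 547, 571 and 641 CPM with the compounds. Neither gene showed overlap between the groups, and dTAG47 1 was the highest library for both. The log2 fold changes were 0.35 for RHOB (SE 0.06, edgeR adjusted p = 0.00226) and 0.30 for JUN (SE 0.05, edgeR adjusted p = 0.00464). RHOB missed the threshold without DMSO 2 (edgeR adjusted p = 0.0524) and JUN without DMSO 1 (edgeR adjusted p = 0.0624).

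Among 29 tested immediate early genes, 22 had a positive fold change (median 0.12), and RHOB and JUN passed. Of the 29, 10 were higher and 0 lower at an unadjusted p under 0.05, against 4.39% and 4.44% of all genes tested. The phosphatase DUSP1 (0.32, SE 0.08), JUND (0.32, SE 0.09), MYC (0.21, SE 0.06) and KLF6 (0.25, SE 0.07) had edgeR adjusted p-values from 0.109 to 0.145. Other members did not move: FOS (0.11, SE 0.20), EGR1 (0.12, SE 0.18) and IER2 (−0.01, SE 0.09) were no larger than their SEs. The median of this list moved with single libraries, from 0.08 without dTAG47 1 to 0.17 without DMSO 1. Of 33 mTORC1 brakes and TFEB targets, which mark nutrient limitation and lysosome production, 25 were positive (median 0.07). SESN2 passed, whereas its relatives SESN1 and SESN3 had negative values (−0.42, SE 0.10, and −0.17, SE 0.08), with edgeR adjusted p of 0.0816 and 0.501.

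HSPA1A, an inducible heat shock chaperone, was called at 0.52 (SE 0.11, edgeR adjusted p = 0.0263). It stood at 22.3, 20.7 and 33.2 CPM in DMSO and between 31.5 and 41.7 CPM with the compounds, so DMSO 3 overlapped them. HSPA1A shares 71.2% of its words with HSPA1B, and the sum of both counts was at 0.16 (SE 0.06, edgeR adjusted p = 0.330). Of 21 heat shock chaperones 8 had a positive fold change (median −0.01). The 24 genes of the unfolded protein response had a median of 0.01, and 0 passed the threshold in either direction. HSPA1A was lost without DMSO 1, DMSO 2 or any AGB1 library (edgeR adjusted p up to 0.369).

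The ribosomal protein genes RPL36 and RPLP1 were also higher. RPL36 rose by 0.23 (SE 0.05) and RPLP1 by 0.18 (SE 0.04), both at an edgeR adjusted p of 0.0263. RPL36 was at 368, 381 and 442 CPM in DMSO and from 451 to 484 CPM with the compounds. Without DMSO 1, DMSO 2 or any AGB1 library neither passed the threshold (edgeR adjusted p up to 0.289 and 0.286), and RPLP1 was also lost without dTAG47 3. The 79 cytosolic ribosomal protein genes did not move with them: 52 had a negative fold change and the median was −0.02. Of the 79, 4 were higher and 8 lower at an unadjusted p under 0.05, against 4.39% and 4.44% of all genes tested. Their mRNAs together took 7.28% ± 0.409 of counts in DMSO (SD, n = 3) and 7.22% ± 0.115 with the compounds (SD, n = 6; two-sided exact permutation p = 0.762).

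Secreted signals that guide cells and axons were among the genes that fell. WNT5A, a secreted ligand of non-canonical WNT signalling (ENSG00000114251, chromosome 3, 55465715 to 55490539, minus strand), stood at 44.3, 42.2 and 41.0 CPM in DMSO 1 to 3. With the compounds it was at 27.7, 29.6 and 32.0 CPM (lowest, median, highest), below every DMSO library. WNT5A fell by 0.52 on the log2 scale (SE 0.08, edgeR adjusted p = 0.000874), which is a level that fell by 30.1%, and the values were −0.54 with dTAG47 and −0.49 with AGB1. TLE4, a Groucho co-repressor that binds the nuclear effectors of WNT signalling (ENSG00000106829, chromosome 9, 79571773 to 79726882), fell by 0.29 (SE 0.06, edgeR adjusted p = 0.0263) and was lost without DMSO 1, DMSO 2 or any AGB1 library (edgeR adjusted p up to 0.272). Of 46 WNT genes tested, 29 had a negative fold change (median −0.07), 8 were lower at an unadjusted p under 0.05 against 4.44% of all genes, and 1 was higher. The transcription factors LEF1 (−0.31, SE 0.09) and TCF7L2 (−0.24, SE 0.08) and the receptor LGR4 (−0.24, SE 0.08) had edgeR adjusted p-values from 0.170 to 0.331.

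SEMA3C, a secreted semaphorin that steers migrating cells (ENSG00000075223, chromosome 7, 80742538 to 80922359, minus strand), was at 34.3, 32.3 and 30.3 CPM in DMSO. With dTAG47 the levels were 23.5, 25.1 and 22.8 CPM, and with AGB1 they were 17.6, 20.7 and 21.0 CPM. The 3 groups did not overlap, and AGB1 was the lowest. SEMA3C fell by 0.57 (SE 0.09, edgeR adjusted p = 0.00323). NRP1, the receptor subunit that binds class 3 semaphorins and VEGF (ENSG00000099250, chromosome 10, 33177492 to 33336262, minus strand), was at 45.6, 41.7 and 40.8 CPM in DMSO and at 28.4, 30.5 and 35.3 CPM (lowest, median, highest) with the compounds. It fell by 0.48 (SE 0.08, edgeR adjusted p = 0.00323). Among 28 semaphorins, neuropilins and plexins, 22 had a negative fold change, but the median was only −0.06. Of the 28, 4 were lower at an unadjusted p under 0.05, against 4.44% of all genes tested. Besides SEMA3C and NRP1 these were SEMA3D (−0.44, SE 0.19) and PLXNA2 (−0.22, SE 0.10).

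FSTL1, a secreted glycoprotein that modulates BMP signalling, stood at 131, 122 and 114 CPM in DMSO and from 88.8 to 108.9 CPM with the compounds. FSTL1 fell by 0.35 (SE 0.06, edgeR adjusted p = 0.00537) and missed the threshold without DMSO 1 or DMSO 2 (edgeR adjusted p of 0.0708 and 0.0514). It was the only one of 37 tested BMP and TGF-beta genes to pass, and the list's median was −0.02. FOXO4, a forkhead transcription factor held in check by AKT (ENSG00000184481, chromosome X, 71096197 to 71103535, plus strand), was at 88.0, 84.5 and 91.9 CPM in DMSO and at 66.3, 69.9 and 72.5 CPM (lowest, median, highest) with the compounds. The groups were separate, and FOXO4 fell by 0.34 (SE 0.06, edgeR adjusted p = 0.00356). Of 21 FOXO genes and targets, FOXO4 was the only one past the threshold, and the median was −0.03.

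Among the retinoic acid genes 3 passed the threshold, all of them lower. Retinoic acid, made from vitamin A by aldehyde dehydrogenases, acts through RAR and RXR receptors and sets positional identity in the embryo, in part through HOX genes. ALDH1A2, which makes retinoic acid (ENSG00000128918, chromosome 15, 57953424 to 58497866, minus strand), was at 76.2, 74.0 and 79.4 CPM in DMSO and at 57.9, 60.1 and 67.6 CPM (lowest, median, highest) with the compounds. DHRS3, which turns retinaldehyde back into retinol and is itself induced by retinoic acid (ENSG00000162496, chromosome 1, 12567910 to 12617731, minus strand), was at 31.1, 30.5 and 36.6 CPM in DMSO and at 18.1, 23.3 and 26.1 CPM with the compounds. NR2F1, an orphan nuclear receptor (COUP-TFI; ENSG00000175745, chromosome 5, 93583224 to 93594615, plus strand), was at 87.2, 77.9 and 85.0 CPM in DMSO and at 58.0, 66.2 and 75.1 CPM with the compounds. In all 3 genes every compound library lay below every DMSO library. ALDH1A2 fell by 0.31 (SE 0.06), DHRS3 by 0.53 (SE 0.10) and NR2F1 by 0.33 (SE 0.07), at edgeR adjusted p of 0.0229, 0.00684 and 0.0263. DHRS3 was at an edgeR adjusted p of 0.0509 without DMSO 3. ALDH1A2 was lost without any DMSO library or AGB1 2 (edgeR adjusted p up to 0.0737), and NR2F1 without any DMSO or any AGB1 library (up to 0.132).

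Of 20 retinoic acid genes tested, 13 had a negative fold change (median −0.17). Of the 20, 7 were lower and 1 higher at an unadjusted p under 0.05, against 4.44% and 4.39% of all genes tested. In 6 all compound libraries lay below all DMSO libraries, against 2.2% of all genes tested. The receptor RARB, a direct retinoic acid target, was at −0.41 (SE 0.10), the retinol dehydrogenase RDH10 at −0.16 (SE 0.05) and NR2F2 at −0.19 (SE 0.06), with unadjusted p of 0.000402, 0.00273 and 0.00286 in edgeR, none past the threshold once adjusted. Not all members moved this way. The receptor RARA was at 0.26 (SE 0.10, edgeR adjusted p = 0.400), and the retinoic acid hydroxylases CYP26A1 (−0.22, SE 0.22) and CYP26B1 (−0.05, SE 0.10) were no larger than their SEs.

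Nearly all HOX genes were on the lower side. HOX genes encode homeodomain transcription factors that give cells their position along the body axis and stand in 4 clusters, HOXA to HOXD, on chromosomes 7, 17, 12 and 2. Of 39 HOX genes 37 were tested, and 35 of these had a negative fold change, against 49.6% of all genes tested. The median was −0.29, with −0.28 for dTAG47 and −0.31 for AGB1 against the shared DMSO libraries. At an unadjusted p under 0.05, 19 were lower and 0 higher, against 4.44% and 4.39% of all genes tested. In 13 all 6 compound libraries lay below all 3 DMSO libraries, and in 0 above, against 2.2% and 2.11% of all genes. HOXA9 (0.04, SE 0.06) and HOXB4 (0.00, SE 0.14) were the exceptions in sign.

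HOXB9, HOXC4, HOXC9 and HOXB3 passed the threshold. HOXB9 (ENSG00000170689, chromosome 17, 48621159 to 48626356, minus strand) was at 157, 162 and 154 CPM in DMSO and at 119, 129.9 and 135 CPM (lowest, median, highest) with the compounds, and it fell by 0.29 (SE 0.05, edgeR adjusted p = 0.00518). HOXC4 (ENSG00000198353, chromosome 12, 54016931 to 54056030, plus strand) was at 19.3, 22.8 and 23.6 CPM in DMSO and at 11.3, 15.2 and 18.2 CPM with the compounds. HOXC9 (ENSG00000180806, chromosome 12, 53994895 to 54003337, plus strand) was at 13.6, 16.1 and 16.8 CPM in DMSO and at 9.81, 11.0 and 11.8 CPM with the compounds. In each of these genes the compound libraries stayed below the DMSO range, by the narrowest margin in HOXC4, where dTAG47 1 came nearest. HOXB3 (ENSG00000120093, chromosome 17, 48548870 to 48604912, minus strand) was at 22.5, 27.7 and 24.4 CPM in DMSO and at 16.4, 17.7 and 20.6 CPM with the compounds. HOXC4 fell by 0.57 (SE 0.12), HOXC9 by 0.51 (SE 0.11) and HOXB3 by 0.44 (SE 0.10), at edgeR adjusted p of 0.0307, 0.0413 and 0.0413. Each of these calls was lost without at least 1 library. HOXB9 was lost without DMSO 2 (edgeR adjusted p = 0.0915), and HOXC4 without DMSO 2, DMSO 3, dTAG47 2, AGB1 1 or AGB1 2 (up to 0.250). HOXC9 was lost without any library but DMSO 1 and dTAG47 1 (up to 0.272), and HOXB3 without any but DMSO 1, dTAG47 1 and dTAG47 3 (up to 0.410). With a replicate block HOXC9 and HOXB3 were lost too (edgeR adjusted p of 0.0674 and 0.0678).

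**Figure D3:**
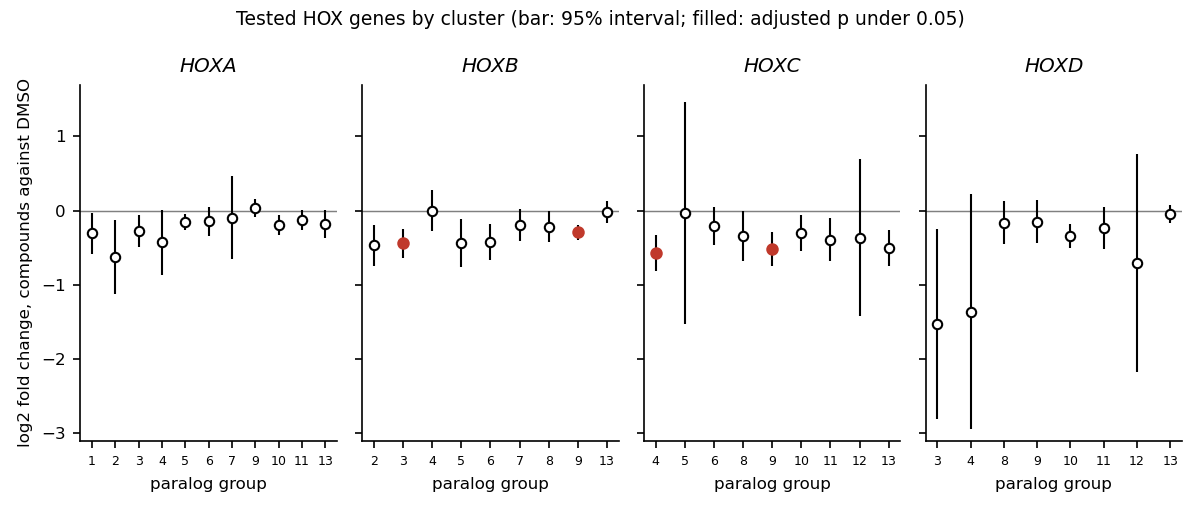
Log2 fold change of the compounds against DMSO (y axis) for the 37 tested HOX genes by paralog group (x axis), one panel per cluster. Points carry 95% intervals, and filled points passed the threshold. All but HOXA9 and HOXB4 lie below 0, and the widest intervals belong to genes near 1 CPM or less.

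The shift ran through all 4 clusters. In HOXA 10 of 11 tested genes had a negative fold change (median −0.18), in HOXB 8 of 9 (−0.29), in HOXC 9 of 9 (−0.36) and in HOXD 8 of 8 (−0.29). The paralog groups 1 to 4, the 3′ end of the clusters, had a median of −0.45 over 10 genes, groups 5 to 8 −0.19 over 11 and groups 9 to 13 −0.26 over 16. Differences between clusters or between paralog groups were not tested. The next smallest p-values were those of HOXD10 (−0.34, SE 0.08) and HOXC13 (−0.50, SE 0.12), at edgeR adjusted p of 0.0688 and 0.0773. Of the group 13 genes, at the 5′ ends, HOXD13 (−0.05, SE 0.06) and HOXB13 (−0.02, SE 0.07) were near 0. HOXA13 was at −0.18 (SE 0.09), and HOXC13, given above, lies at the same end. Among the 29 HOX genes with a mean of at least 5 CPM, 27 had a negative fold change (median −0.23).

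Per library, the median deviation of the 37 HOX genes from their own means was 0.15, 0.13 and 0.26 in DMSO 1 to 3. With dTAG47 the medians were −0.05, −0.15 and −0.04, and with AGB1 they were −0.08, −0.06 and −0.05. The 3 DMSO libraries were thus all above the 6 compound libraries, with DMSO 3 farthest, and without DMSO 3 the median was −0.24 with 32 of 37 genes negative and 1 HOX gene called. Without DMSO 2 the median was −0.29 and 0 HOX genes were called, with 15 lower and 0 higher at an unadjusted p under 0.05. Transcript GC content, along which the libraries differed, was 55.1% at the median of the HOX genes and 48.6% over all tested genes. With the GC trend removed from each library the HOX median was −0.32 and 6 HOX genes were called. Many HOX genes overlap neighbours or antisense RNAs. HOXC4 shares 17.8% of its exonic bases with other genes and HOXB3 13.2%, whereas HOXB9, HOXA5 and HOXC11 share none, and whether counting used strand is unknown here.

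Of 16 antisense and other long RNAs of the clusters that were tested, chosen after the HOX values were seen, 15 had a negative fold change (median −0.35). Many share exonic bases with other genes, 30.1% in HOXB-AS3, 44.9% in HOTAIRM1 and 39.3% in HOXA-AS3, and if counting ignored strand, their reads and those of the genes they overlap cannot be told apart. HOXB-AS3, a long RNA transcribed opposite to the middle of the HOXB cluster (ENSG00000233101, chromosome 17, 48549630 to 48606414, plus strand), was at 11.1, 11.6 and 11.4 CPM in DMSO and at 5.20, 7.35 and 8.41 CPM (lowest, median, highest) with the compounds. It fell by 0.66 (SE 0.14, edgeR adjusted p = 0.0263), with all compound libraries below DMSO, and was lost without DMSO 1, DMSO 2, AGB1 1 or AGB1 3 (edgeR adjusted p up to 0.164). HOTAIRM1 was at −0.35 (SE 0.15) and HOXA-AS3 at −0.35 (SE 0.10), while HOXA10-AS was at 0.04 (SE 0.20).

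PBX3, a homeodomain partner that binds DNA together with HOX proteins (ENSG00000167081, chromosome 9, 125747345 to 125967377, plus strand), also fell. It was at 30.0, 29.5 and 29.6 CPM in DMSO and at 20.7, 22.0 and 25.6 CPM (lowest, median, highest) with the compounds, at −0.41 on the log2 scale (SE 0.09, edgeR adjusted p = 0.0263). It was lost without DMSO 1, DMSO 2, dTAG47 3 or any AGB1 library (edgeR adjusted p up to 0.161). Of homeobox genes outside the HOX clusters, 66 of 99 had a negative fold change (median −0.08). The deposited files assign a transcription factor family to 8 of the 25 genes that fell and to JUN alone among the 11 that rose, beside 6.72% of the genes tested. With HOXB9, HOXC4, HOXC9, HOXB3 and PBX3, 5 of the called genes were homeobox genes. Over all 1231 transcription factor genes the median was −0.02.

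HMGA2, an architectural chromatin protein of embryonic cells, fell by 0.28 (SE 0.06, edgeR adjusted p = 0.0484), from 78.7, 80.2 and 76.2 CPM to between 59.1 and 70.4 CPM, and missed the threshold under 11 of the other settings (edgeR adjusted p up to 0.287). ZNF608, a zinc finger protein, fell by 0.47 (SE 0.10, edgeR adjusted p = 0.0246). CENPE, the kinetochore motor that aligns chromosomes (ENSG00000138778, chromosome 4, 103105806 to 103198409, minus strand), was at 214, 193 and 204 CPM in DMSO and at 151, 166 and 179.8 CPM with the compounds. It fell by 0.30 (SE 0.06, edgeR adjusted p = 0.00996) and was lost without DMSO 1 (0.0942) or AGB1 3 (0.0517). ZNF608 was lost without DMSO 1, DMSO 2, AGB1 1 or AGB1 3 (edgeR adjusted p up to 0.286). Of 50 G2/M and mitosis genes, 39 had a negative fold change (median −0.06). There were 10 lower and 0 higher at an unadjusted p under 0.05, against 4.44% and 4.39% of all genes tested. The spindle checkpoint kinase TTK (−0.31, SE 0.07) and ASPM (−0.22, SE 0.06) had edgeR adjusted p of 0.0765 and 0.0842. DNA replication genes had a median of −0.01 over 46 genes and 0 passed.

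ARGLU1, a regulator of splicing and transcription, fell by 0.29 (SE 0.06, edgeR adjusted p = 0.0246), from 98.3, 115.8 and 109.4 CPM to between 85.3 and 95.5 CPM, and was lost without DMSO 2, AGB1 2 or AGB1 3 (up to 0.315). Of 32 splicing regulators 20 had a negative fold change (median −0.03). In 6 the compound libraries lay below DMSO without overlap, against 2.2% of all genes tested. Unadjusted p was under 0.05 in 7 that were lower and 1 that was higher, against 4.44% and 4.39% of all genes. CLK4, LUC7L3, DDX17 and RBM39 were among those 7, between −0.34 and −0.15. ADD3, a cytoskeletal adducin outside the rule for named genes and named with its values known, fell by 0.27 (SE 0.06, edgeR adjusted p = 0.0307) and was lost without DMSO 1, DMSO 2, dTAG47 3, AGB1 1 or AGB1 3 (up to 0.250).

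GPR89B, PKD1P1 and FP236383.2 had the lowest fold changes among the called genes, and their counts are uncertain because near-identical copies may share their reads. GPR89B, a Golgi pH regulator, was at 22.6, 17.1 and 15.2 CPM in DMSO and from 6.28 to 13.1 CPM with the compounds (−0.91, SE 0.16, edgeR adjusted p = 0.00464). It shares 73.7% of its words with GPR89A, and the summed count was at −0.23 (SE 0.13, edgeR adjusted p = 0.612). PKD1P1, a pseudogene of PKD1, was at −2.99 (SE 0.54, edgeR adjusted p = 0.00684) from 0.151, 2.09 and 4.23 CPM in DMSO, the first of these within the compound range of 0.108 to 0.455 CPM. It shares 97.6% of its words with 12 genes, and summed with a second entry of the same name it was at −1.32 (SE 0.32, edgeR adjusted p = 0.0793). FP236383.2, all of whose words occur in other genes, was at −2.29 (SE 0.50, edgeR adjusted p = 0.0420), and its compound libraries ranged from 0.0358 to 2.86 CPM against 2.24 to 8.35 CPM in DMSO. Summed with its closest copy, which did not pass the low-count filter, it was at −2.26 (edgeR adjusted p = 0.0484). AC091182.1, a non-coding gene without such copies, fell by 0.66 (SE 0.15, edgeR adjusted p = 0.0420). The mitochondrial small ribosomal RNA MT-RNR1 fell by 0.30 (SE 0.06, edgeR adjusted p = 0.0246), with DMSO 3 at 749.9 CPM inside the compound range of 593 to 784 CPM. Without DMSO 1 GPR89B was at an edgeR adjusted p of 0.0959, and without DMSO 3 PKD1P1 was at 0.195. PKD1P1 was also lost with limma-voom (adjusted p = 0.367) and with a replicate block (edgeR adjusted p = 0.0701). FP236383.2 was lost without any of 6 libraries (up to 0.135), AC091182.1 without any but DMSO 3 and dTAG47 2 (up to 0.252) and MT-RNR1 without DMSO 1, DMSO 2 or AGB1 3 (up to 0.339). DESeq2 did not call MT-RNR1 or HSPA1A.

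The mRNAs of the PRPP synthetase complex showed no called change, and PRPP synthesis itself was not measured. PRPS1 (ENSG00000147224, chromosome X, 107628424 to 107651026) was at 99.1, 105.2 and 106.0 CPM in DMSO and from 106.4 to 113.4 CPM with the compounds, a log2 fold change of 0.08 (95% interval −0.02 to 0.19, edgeR adjusted p = 0.680). PRPS2, the paralogous synthetase, was at −0.04 (−0.14 to 0.07), and the second associated protein PRPSAP2 at 0.06 (−0.07 to 0.19). PRPSAP1 (ENSG00000161542, chromosome 17, 76309486 to 76384521) was at −0.01 (−0.21 to 0.20), with DMSO libraries at 36.6, 23.5 and 28.3 CPM around the compound range of 26.8 to 32.1 CPM, and its value was 0.18 without DMSO 1. A p above the threshold does not show that the levels were equal.

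No gene on the lists upstream and downstream of PRPP passed the threshold in either direction with edgeR. All 8 tested pentose phosphate genes had a positive fold change (median 0.08), and 2 had an unadjusted p under 0.05, H6PD (0.20, SE 0.08) and RPIA, which makes ribose 5-phosphate (0.16, SE 0.07). Of 11 genes of de novo purine synthesis 7 were positive (median 0.04). The highest was ADSSL1, an adenylosuccinate synthase (0.44, SE 0.19), and the lowest PPAT, the first committed enzyme and a consumer of PRPP (−0.10, SE 0.05). ADSSL1 and IMPDH1 were higher and 0 were lower at an unadjusted p under 0.05. Pyrimidine synthesis had a median of 0.02 over 11 genes, purine and NAD salvage 0.05 over 12, dNTP supply 0.03 over 14 and serine and one-carbon genes 0.06 over 26. By the same threshold, 4 of the 14 dNTP genes were higher (TK2, TYMS, SAMHD1 and DUT, from 0.12 to 0.29) and 0 lower, and 4 of the 26 serine and one-carbon genes were higher and 0 lower, beside 4.39% of all genes that were higher. Of 23 glycolytic genes 21 were positive, with a median of 0.04.

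**Figure D4:**
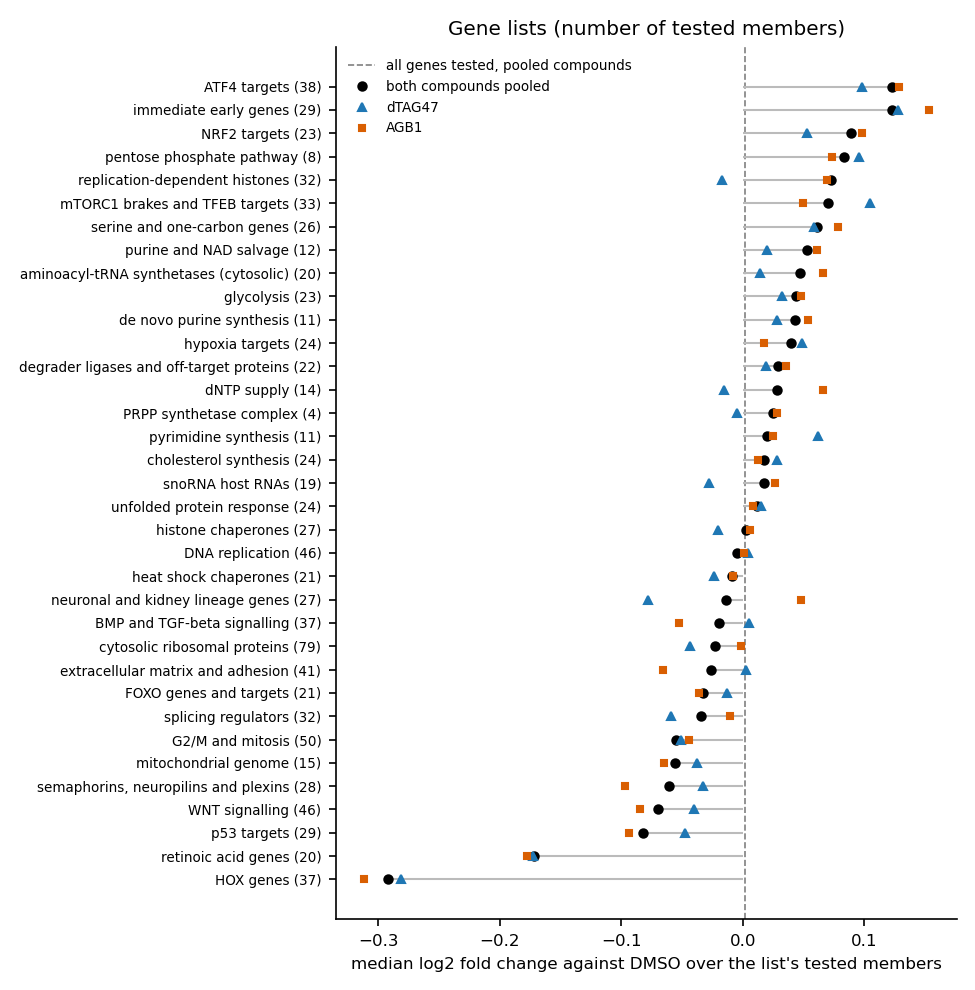
Median log2 fold change against DMSO (x axis) over the tested members of each of 35 gene lists (number of members in brackets). Circles are both compounds pooled, triangles dTAG47 and squares AGB1, all against the same DMSO libraries, and the dashed line is the median of all genes tested. HOX genes lie lowest at −0.29 and ATF4 targets and immediate early genes highest at 0.12.

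Targets of p53, a protein that large T antigen binds in this line, had a negative fold change in 21 of 29 genes (median −0.08), with 6 lower and 4 higher at an unadjusted p under 0.05, beside 4.44% and 4.39% of all genes, and SESN2 past the threshold upward. CDKN1A was at 0.19 (SE 0.08) and MDM2 at −0.16 (SE 0.06). Hypoxia targets, which VHL restrains by marking the HIF factors for destruction, had a median of 0.04 over 24 genes with 0 past the threshold, and NDRG1 was at 0.24 (SE 0.06, edgeR adjusted p = 0.109). The degrader ligases and known off-target proteins had a median of 0.03 over 22 genes, with CRBN at 0.26 (SE 0.13, edgeR adjusted p = 0.556). Replication-dependent histones had a median of 0.07 over 32 genes, histone chaperones 0.00 over 27 and cholesterol synthesis 0.02 over 24, with 0 past the threshold.

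A direct test of dTAG47 against AGB1, in which DMSO enters only through the spread, called 0 of 18319 genes with edgeR (0.0%) and 0 with DESeq2. At an unadjusted p under 0.05 there were 736 with edgeR (4.02%) and 818 with DESeq2. Without dTAG47 1 edgeR called 1 gene and without AGB1 1 it called 2. The lowest edgeR adjusted p was 0.999. Among the 36 called genes the 95% interval of the difference included 0 in 32, and the median width of that interval was 0.31. The other 4 genes were SEMA3C (dTAG47 minus AGB1 0.27, SE 0.10), DHRS3 (0.27, SE 0.11), NR2F1 (0.17, SE 0.08) and FSTL1 (0.16, SE 0.07). In each the level was lower with AGB1, and each had an edgeR adjusted p of 0.999. For HMOX1 the difference was −0.07 (95% interval −0.23 to 0.09), for CHAC1 −0.02 (−0.33 to 0.29), for SLC7A5 −0.03 (−0.14 to 0.07) and for WNT5A −0.04 (−0.23 to 0.14). Intervals of this width do not show that the compounds act alike. Taken separately against the shared DMSO libraries, edgeR called 11 genes with dTAG47 (0.06%) and 19 with AGB1 (0.104%).

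The GC content of the transcripts went with the direction of the calls. Its median was 59.4% in the 11 genes that rose, 47.4% in the 25 that fell and 48.6% over all tested genes, and across 11435 genes the fold change followed GC content with a Spearman's rho of 0.270. Removing the GC trend from each library brought this rho to −0.00515, and all 36 calls held among the 80 genes then called. The part of GC content in single fold changes was otherwise not tested.

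HMOX1, WNT5A, SLC7A5, NRP1, SEMA3C and FOXO4 passed the threshold under all 22 other settings tried, the removal of each library included. The other 30 calls were lost without at least 1 library. Without DMSO 1, 2 or 3 the fit called 19, 16 and 84 genes, with 14, 14 and 28 of the 36 among them. Without AGB1 1, 2 or 3 it called 25, 21 and 17, with 21, 20 and 17 of the 36 among them. Without dTAG47 1, 2 or 3 it called 40, 42 and 31, with 33, 33 and 27 of the 36 among them. The genes nearest the threshold were HMGA2, AC091182.1 and FP236383.2 inside it (edgeR adjusted p from 0.0420 to 0.0484) and SLC25A36, SDC2 and COTL1 outside it (0.0506 each).

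**Figure D5:**
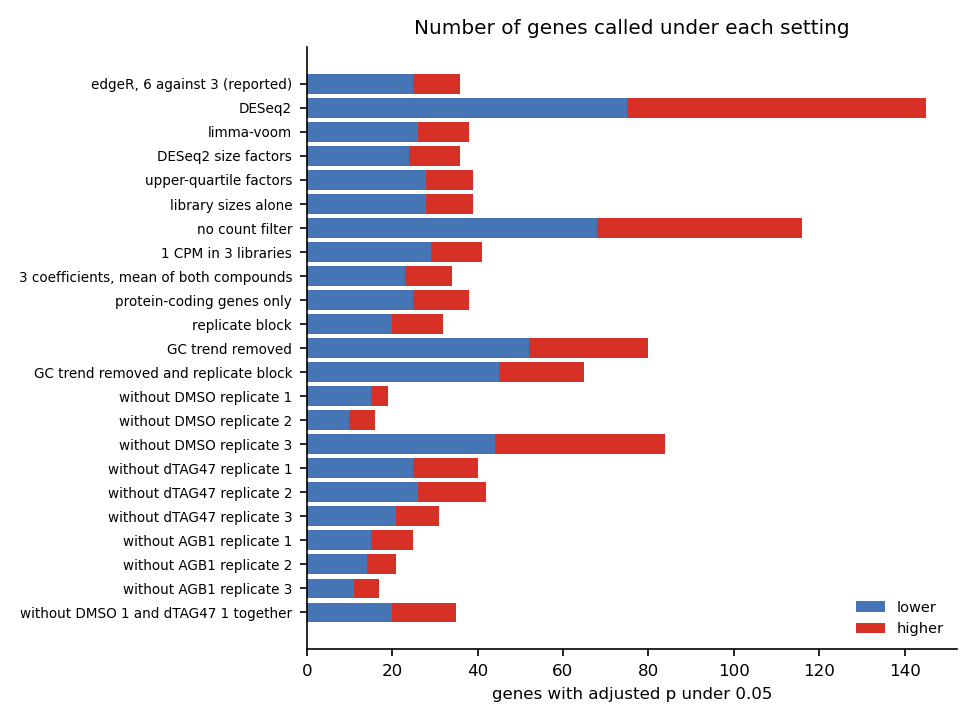
Number of genes past an adjusted p of 0.05 (x axis) in the reported fit and under 22 other settings, split into lower (blue) and higher (red) with the compounds. The reported fit has 36, and counts run from 16 without DMSO 2 to 145 with DESeq2.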

How the data were processed

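The authors deposited raw counts per Ensembl gene, 1 library per file, with whole numbers and a different total in each. HISAT2, DESeq2 and hg38 are named in the submitters' processing notes. How reads were counted, whether by strand, and the versions are not stated there. All 58735 gene entries matched GENCODE 29, and every row names a gene.

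Counts were tested with edgeR 4.0.16 (quasi-likelihood, R 4.3.3) with TMM factors and its default low-count filter over the 6 and 3 libraries, at a Benjamini-Hochberg adjusted p of 0.05. A fit with a coefficient per treatment gave the values of each compound. Levels are CPM on TMM library sizes, and a count of 3 was worth 0.0670 to 0.107 CPM. At 5 CPM or more the median SE of a log2 fold change was 0.08. GC trends were removed per library by lowess (span 0.3). Alternatives used DESeq2 1.42.0 and limma 3.58.1 (voom), other factors and filters, a replicate block and each library left out. Copies were sought as shared 75-base words, and summing the counts of copies was chosen after seeing the data. Per-library list deviations used log2 of CPM plus 0.1.

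The groups, members and gene lists were chosen with earlier results of these data known. Named genes are the 4 PRPP synthetase complex genes, up to 15 rises and 15 falls by size among protein-coding called genes of at least 5 CPM, up to 3 further called genes per list, 4 non-coding called genes, the 4 called genes that differed most between compounds, and the 3 nearest the threshold on each side. HOX antisense RNAs and list members without a call were added after their values were seen. A called gene that rose is counted in the totals and not reported here.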

Additional observations from a re-analysis of the deposited data

Results flagged for a closer look

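In 43 named genes the 6 compound libraries were examined for 1 library far from the rest (a gap to its nearest neighbour, as a share of the whole range, above Dixon's critical value), which chance gives in about 1 of 20 sets. NRP1 stood out in dTAG47 2, at 35.3 CPM, where the nearest library was at 30.8 CPM and the lowest at 28.4 CPM (0.652 of the range). This library was still below all DMSO libraries. RPLP1 stood out in dTAG47 1, at 1150.2 CPM, where the nearest library was at 1241 CPM and the highest at 1279 CPM (0.708 of the range). No cause was tested for either.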

How the results depend on the processing

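The count of 36 genes against DMSO (30.6% of them higher) became 145 with DESeq2 (48.3% higher), 116 without a count filter (41.4% higher), 80 with the GC trend removed and 65 with the GC trend removed and a replicate block. Leaving out 1 library at a time gave 16 to 84. DESeq2 called 32 of the 36, limma-voom 35 and the replicate block, with 32 genes in all, 31. The same replicate numbers did not go with shared deviations (correlations from −0.156 to 0.0715), so the block was not used for the reported values. Between dTAG47 and AGB1 the count was 0 with DESeq2 and with the block, and 0 to 2 with 1 library left out. PRPSAP1, near 0 in the reported fit (−0.01), was 0.0149 with limma-voom and 0.00709 with the replicate block. With 1 library left out it ran from −0.15 (without DMSO 2) to 0.18 (without DMSO 1), above 0 also without dTAG47 3 or AGB1 1 (0.02 each), and it was 0.15 without DMSO 1 and dTAG47 1 together. The cause was not tested. No called gene changed sign in any setting. Of 769 list medians recomputed, 34 moved by more than the spread between libraries. The snoRNA host list has no value among protein-coding genes alone.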
